A study of Mus musculus with 4 samples.

Results

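The genes described here are the mouse members of the Myc, Max and Mxd network of transcription factors. They were taken as the non-control spots whose gene name was Myc, Mycn, Mycl1, Max, Mxd1, Mxd3, Mxd4, Mxi1, Mnt or Mlx, with every probe of each gene. This gave 10 genes of the 36310 named on the array, measured by 12 probes. The cells were 32D-EpoR, a line of mouse 32D myeloid progenitor cells, which depend on a cytokine, whose name says that it carries the erythropoietin receptor. How that receptor was introduced, whether the line is 1 clone, and the time spent with Epo are not given in the sources used here. In the first group, cells taken out of WEHI medium (their usual source of cytokine, held at 10% in maintenance culture) were given erythropoietin (Epo) at 10 U/ml. In the second group, cells were likewise taken out of WEHI medium and received no Epo, so every culture compared here had lost that medium. Each group had 2 arrays, from 2 independent experiments on cells of different passages, and each array measured total RNA labelled with a single dye.

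MYC proteins (MYC, MYCN and MYCL) bind DNA as pairs with MAX, most tightly at the E-box sequence CACGTG, and recruit enzymes that open chromatin and raise transcription. The MXD proteins, MXI1 and MNT also pair with MAX, bind the same sequence and recruit the SIN3 corepressor and histone deacetylases, so they compete with MYC for MAX and for its sites. MLX is a related partner that pairs with MXD1, MXD4, MNT and the glucose-sensing Mondo proteins rather than with MYC. In blood cells Myc is induced by cytokines and serves growth and division, while Mxd genes are known for being expressed as cells stop dividing and mature.

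The arrays limit the precision by their number, 2 per group, and by 1 feature of their brightness that touches every value below. The 75th percentile of the spot intensities was 347 and 454 units with Epo, against 224 and 250 units without Epo, so the median gene was 0.68 log2 units brighter with Epo before any scaling. Probes for spike-in transcripts went the other way, with a mean of -0.27 log2 units (with Epo minus without Epo) over the 8 of 10 that stood well above background on all arrays. Values below are scaled to the 75th percentile of each array unless another scale is named, and on that scale the median change over all genes was -0.06. A change is therefore relative to the other genes on the array, and whether total RNA per cell differed between the groups was not tested. Of the 11 myeloid progenitor markers, 9 were well above background on all 4 arrays, and Kit was so on none. The summed scaled signal of that list was 158895 to 169528 with Epo, against 187768 to 191532 without Epo. Its brightest gene, Ctsg, changed by -0.25 and Mpo by -0.54 log2 units, while Cd34 changed by 0.75 and Ptprc by 0.33. None of these had an adjusted p under 0.05 in limma. Markers of other cells were also measured. Of 8 lymphoid markers 3 were well above background on all arrays, while 5, among them Ms4a1, Cd8a, Cd3g and Cd79a, were so on none. The 3 were Cd3e, Cd4 and Cd79b, which changed by -1.14, -0.81 and -0.77 log2 units. Each had an adjusted p under 0.05 in limma. The sum over the 8 was 1284 to 1414 with Epo, against 2402 to 2473 without Epo. The erythroid sum was 8127 to 8320 with Epo, against 11609 to 13295 without Epo, with Alas2 not well above background on any array. Gata1, the brightest of that list, changed by -0.68, while Klf1 changed by -0.10, Hba-a1 by -0.19 and Epb42 by -0.49. Of these only Gata1 had an adjusted p under 0.05 in limma. The macrophage sum was 5576 to 6023 with Epo, against 4672 to 4854 without Epo, but the genes of that list did not move together. Adgre1 changed by 1.03 and Csf1r by -0.79 log2 units, while Cd68 and Lyz2 changed by 0.08 and 0.06. C1qa and Mrc1 were not well above background on any array. The stromal sum was 228 to 341 with Epo, against 433 to 452 without Epo. In that list Pdgfrb changed by -2.45 and Thy1 by 0.18. The part of these markers in the changes below was not tested, and in bulk RNA fewer cells of a type and less RNA per cell cannot be told apart.

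Of the 10 member genes, 8 were measured, and 6 of those passed the test (limma over all 17555 genes tested, Benjamini-Hochberg adjusted p under 0.05). Mycn, Myc, Max and Mlx were higher with Epo, and Mxd1 and Mxd3 were lower. Mnt and the brighter Mxd4 probe did not pass. Over all genes tested, 13.1% were called higher with Epo and 14.3% lower. Mycl1 and Mxi1 were not well above background on any array.

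**Figure D1:**
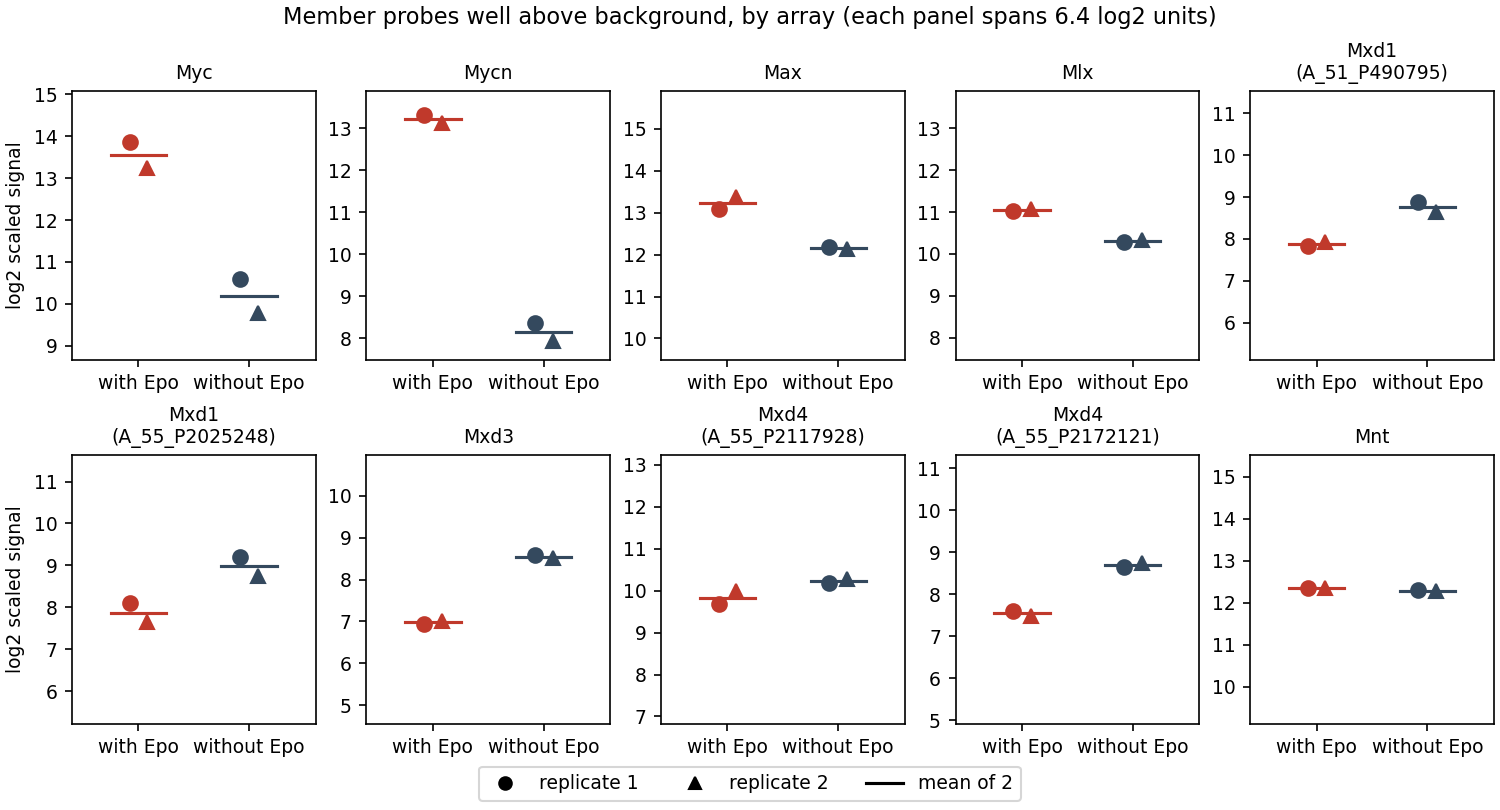
Log2 scaled signal of the 10 measured member probes on each array, with Epo on the left of each panel and without Epo on the right; circles are replicate 1, triangles replicate 2 and bars the mean of 2. Each panel spans the same number of log2 units but has its own level, since levels of different probes cannot be compared; the groups are far apart for Mycn and Myc and nearly level for Mnt.

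Mycn, the MYC paralogue best known from nervous tissue and neuroblastoma, had the strongest response of the network. Its probe lies at chr12:12943193-12943252 on the minus strand (mm9, as the array files give it). Its first 30 bases are shown to fix which transcript was read.
Mycn probe: tgtactaattcctacacggcctgtatactt
Mycn had log2 scaled signals of 13.33 and 13.13 with Epo, against 8.36 and 7.93 without Epo. As deposited, before scaling, these were intensities of 11677 and 13313 with Epo, against 239 and 199 without Epo. Both arrays with Epo were far above both arrays without it. The log2 change was 5.09 ± 0.19 (SE; 95% interval 4.59 to 5.60), a 34.1-fold rise with an adjusted p of 0.00313 in limma, and Mycn ranked number 3 by log2 change among the 17555 genes tested.

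Myc, the family member that cytokine receptors induce in most dividing blood cells, rose as well. Its probe, at chr15:61821417-61821476 on the plus strand (mm9), covers the end of the reading frame, and is given whole because it places the signal at the 3' end of the Myc coding sequence. Capitals mark the stop codon, which ends at base 47 of the probe.
Myc probe: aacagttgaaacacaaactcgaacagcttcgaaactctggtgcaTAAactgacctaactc
Myc had log2 scaled signals of 13.87 and 13.25 with Epo, against 10.58 and 9.78 without Epo. The intensities as deposited were 16938 and 14402 with Epo, against 1120 and 720 without Epo. The groups did not overlap, and in both of them replicate 1 was the higher array. The log2 change was 3.37 ± 0.35 (SE; 95% interval 2.44 to 4.31), a 10.4-fold rise with an adjusted p of 0.00765 in limma, at rank 34 by log2 change among the genes tested. Mycn and Myc kept their calls without any 1 array, with changes of 4.88 to 5.30 for Mycn and 2.97 to 3.77 for Myc.

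Mycl1 (now Mycl), the third MYC activator, is best known from lung and brain. Its probe, at chr4:122679535-122679594 on the plus strand (mm9), gave intensities of 5.24 and 3.80 with Epo, against 4.57 and 5.17 without Epo. The dimmest probe counted as well above background had an intensity of 20.8 and 15.0 on the arrays with Epo, and of 18 and 19.9 on those without Epo. Mycl1 was thus below the measurable range in both groups, and no fold is given.

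Max, the shared partner of MYC and of its antagonists, was higher with Epo by less than Mycn or Myc. Its probe lies at chr12:78038272-78038331 on the minus strand (mm9). The first 30 bases are shown because Max serves below as the yardstick for the other members.
Max probe: cccaagaattgtcctgcaagttaaggcttc
Max had log2 scaled signals of 13.08 and 13.37 with Epo, against 12.19 and 12.13 without Epo. Both arrays with Epo stood above both without it, and replicate 2 was the higher with Epo. The log2 change was 1.06 ± 0.15 (SE; 95% interval 0.67 to 1.45), 2.09-fold, with an adjusted p of 0.0128 in limma.

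Mlx, which carries the Mondo branch of the network, was read by a probe at chr11:100952426-100952485 on the plus strand (mm9). It had log2 scaled signals of 11.03 and 11.07 with Epo, against 10.29 and 10.33 without Epo. Replicates lay close together within each group and the groups did not overlap. Mlx rose by 0.73 ± 0.11 on the log2 scale (SE; 95% interval 0.44 to 1.03), 1.66-fold, with an adjusted p of 0.0151 in limma. That call was lost without replicate 1 with Epo (adjusted p = 0.0714) and without replicate 2 with Epo (adjusted p = 0.0776), at nearly the same change.

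Among the antagonists, Mxd3 had the largest fall. Mxd3 is the Mxd gene known in mouse for its expression in S phase of dividing cells, which sets it apart from Mxd1 and Mxd4. Its probe lies at chr13:55427000-55427059 on the minus strand (mm9), and its first 30 bases identify the transcript with the clearest fall.
Mxd3 probe: gagattaaagccaaggtgtgggagcagact
Mxd3 had log2 scaled signals of 6.94 and 7.02 with Epo, against 8.57 and 8.52 without Epo. As deposited, the intensities were 139 and 192 with Epo, against 278 and 300 without Epo, so Mxd3 was lower with Epo even before the arrays were scaled. The log2 change was -1.57 ± 0.11 (SE; 95% interval -1.87 to -1.27), 2.96-fold lower, with an adjusted p of 0.00491 in limma. Mxd3 kept this call without any 1 array, at changes of -1.61 to -1.53. With the arrays scaled to the spike-in probes the change was -0.55 and missed the threshold (adjusted p = 0.0565 in limma).

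Mxd1, the antagonist first linked to myeloid differentiation, was measured by 2 probes that do not overlap, at chr6:86599053-86599112 and chr6:86597190-86597249 on the minus strand (mm9). The brighter had log2 scaled signals of 8.11 and 7.64 with Epo, against 9.21 and 8.74 without Epo. The other had 7.83 and 7.94 with Epo, against 8.88 and 8.64 without Epo. Both probes were lower on each array with Epo than on each array without it. The brighter fell by 1.1 ± 0.24 on the log2 scale (SE; 95% interval -1.75 to -0.45; adjusted p = 0.0358 in limma over genes), 2.15-fold. The other changed by -0.88 ± 0.14 (SE; adjusted p = 0.0189 in limma over all 23735 probes). The brighter probe's call was lost without replicate 2 with Epo (-0.87, adjusted p = 0.0892) and without replicate 1 without Epo (-0.87, adjusted p = 0.0646). The other's was lost without replicate 1 with Epo (adjusted p = 0.0859) and without replicate 2 with Epo (adjusted p = 0.0620). Without scaling, the changes of the brighter and the other probe were -0.35 and -0.13, and with spike-in scaling -0.09 and 0.14, none of them past the threshold.

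Mxd4, an antagonist expressed in many tissues, was read by 2 probes that gave different calls. They lie at chr5:34519323-34519382 and chr5:34519276-34519335 on the minus strand (mm9) and share 13 bases, marked in capitals below, at the end of the first and the start of the second. They are shown because the difference arose between targets that touch on the genome.
Mxd4 first probe, last 30 bases: atcattccagaagtattAAATATCATTTCT
Mxd4 second probe, first 30 bases: AAATATCATTTCTacaaatctcggcaggat
The first and brighter probe had log2 scaled signals of 9.67 and 9.99 with Epo, against 10.18 and 10.28 without Epo. Its change of -0.40 ± 0.16 (SE; 95% interval -0.81 to 0.01; adjusted p = 0.125 in limma) did not pass. The second had 7.60 and 7.48 with Epo, against 8.64 and 8.73 without Epo. It fell by 1.15 ± 0.12 on the log2 scale (SE; adjusted p = 0.00863 in limma over all probes), 2.21-fold, and kept this call without any 1 array. The first probe was higher with Epo in the unscaled values (0.35) and under spike-in scaling (0.62), while the second was lower under both (-0.40 and -0.13), none of these past the threshold. With the mean of both probes taken for the gene, Mxd4 was -0.77 and passed (adjusted p = 0.0148 in limma). The difference between the probes was not tested.

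Mxi1, the antagonist named for its interaction with MAX, had a probe at chr19:53450238-53450297 on the plus strand (mm9). Its intensities were 4.76 and 4.06 with Epo, against 4.04 and 4.49 without Epo, below the measurable range on all 4 arrays. Mnt, the most widely expressed antagonist and the one found together with MYC in dividing cells, was read at chr11:74658915-74658974 on the plus strand (mm9). It had log2 scaled signals of 12.34 and 12.35 with Epo, against 12.30 and 12.27 without Epo. The 4 values lay within a narrow range. Mnt changed by 0.06 ± 0.11 (SE; 95% interval -0.23 to 0.35; adjusted p = 0.704 in limma), so a change of more than 0.35 log2 units either way lay outside the interval. In unscaled values Mnt was higher with Epo by 0.81 (adjusted p = 0.0287 in limma), close to the 0.68 of the median gene, and under spike-in scaling by 1.07 (adjusted p = 0.00221 in limma), against 0.95 for the median gene. With quantile normalization the change of Mnt was -0.047, and with the percentile over detected probes it was -0.063.

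Counted by probe, 4 of the 10 measured member probes were higher with Epo and 4 lower, against 13.0% and 12.9% of all 23735 probes. The probes called lower were those of Mxd3, both of Mxd1 and the second of Mxd4. Groups did not overlap for Mnt and the first Mxd4 probe either, nor for the Mycl1 and Mxi1 probes, which were below the measurable range. With 2 arrays per group that separation alone therefore did not mark a call. The share of all probes with groups that did not overlap was not computed. Under all 3 scalings Mycn, Myc, Max and Mlx were higher and passed, and Mxd3 was lower. The dimmer Mxd1 probe and the first Mxd4 probe changed sign with the scale, while the brighter Mxd1 probe and the second Mxd4 probe were lower under all 3 but passed only on the main scale.

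**Figure D2:**
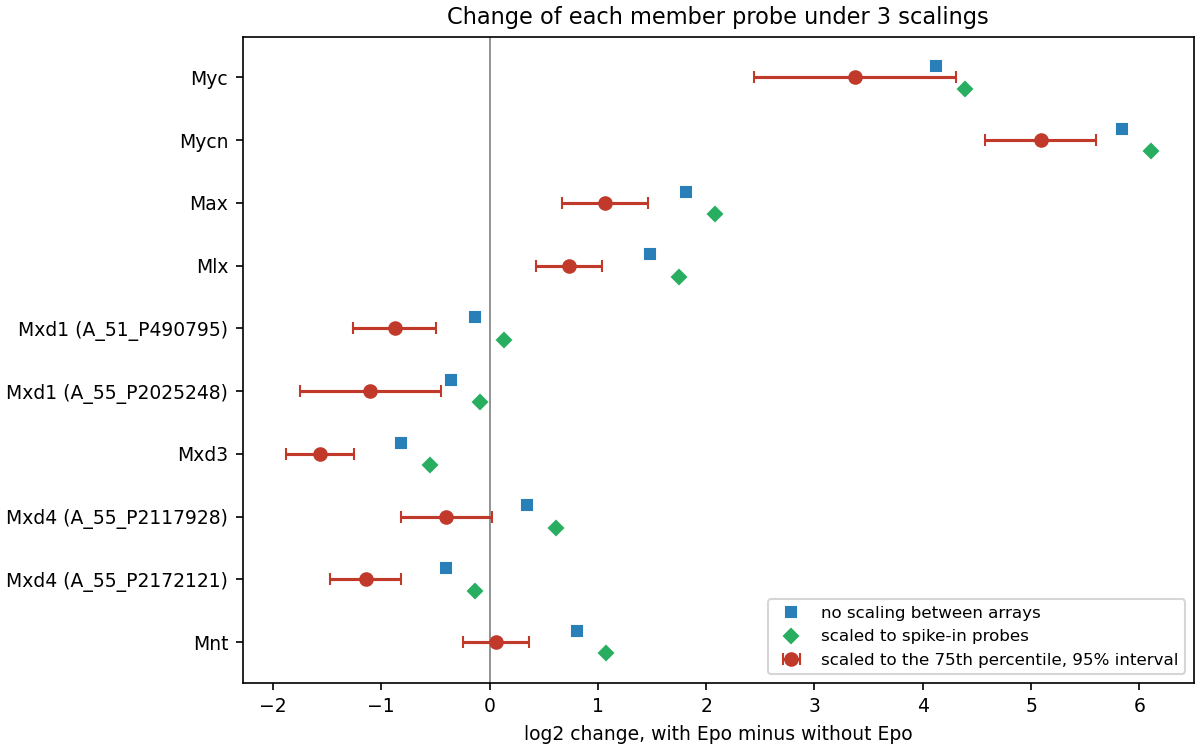
Log2 change (with Epo minus without Epo) of each measured member probe, as circles with 95% intervals when scaled to the 75th percentile, as squares without scaling and as diamonds when scaled to the spike-in probes. The first 4 probes stay above 0 throughout, Mxd3 stays below 0, and the first Mxd4 probe (A_55_P2117928) and the dimmer Mxd1 probe (A_51_P490795) lie on both sides of 0.

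Ratios between 2 probes of the same array do not depend on a scaling that shifts the whole array. Quantile normalization or another background correction can still change them. Each other member was therefore also set against Max, the partner for which MYC proteins and their antagonists compete. Mlx, itself a related partner that does not pair with MYC, was included only as a description. Relative to the Max probe, Mycn was higher with Epo by 4.09 and 3.96 log2 units in replicates 1 and 2, a mean of 16.3-fold. Myc was higher relative to Max by 2.40 and 2.22, a mean of 4.96-fold. Thus the signal of both MYC genes changed by more than that of Max for both replicate numbers. Mlx changed by -0.15 and -0.51 relative to Max. Mnt changed by -0.84 and -1.16 relative to Max, lower by a mean of 2.0-fold. Mxd3 had the largest negative change relative to Max, at -2.52 and -2.74, 6.20-fold lower on average. The brighter Mxd1 probe changed by -1.99 and -2.34 relative to Max and the other by -1.94 and -1.94, 4.49-fold and 3.84-fold lower. The first Mxd4 probe changed by -1.39 and -1.53 and the second by -1.93 and -2.49, 2.76-fold and 4.63-fold lower. Every antagonist probe measured was therefore lower relative to Max with Epo for both replicate numbers, which the labels match between the groups by number alone. These ratios share the Max values, whose own rise enters each of them, and they are given as a description with no test. They say nothing of protein levels.

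**Figure D3:**
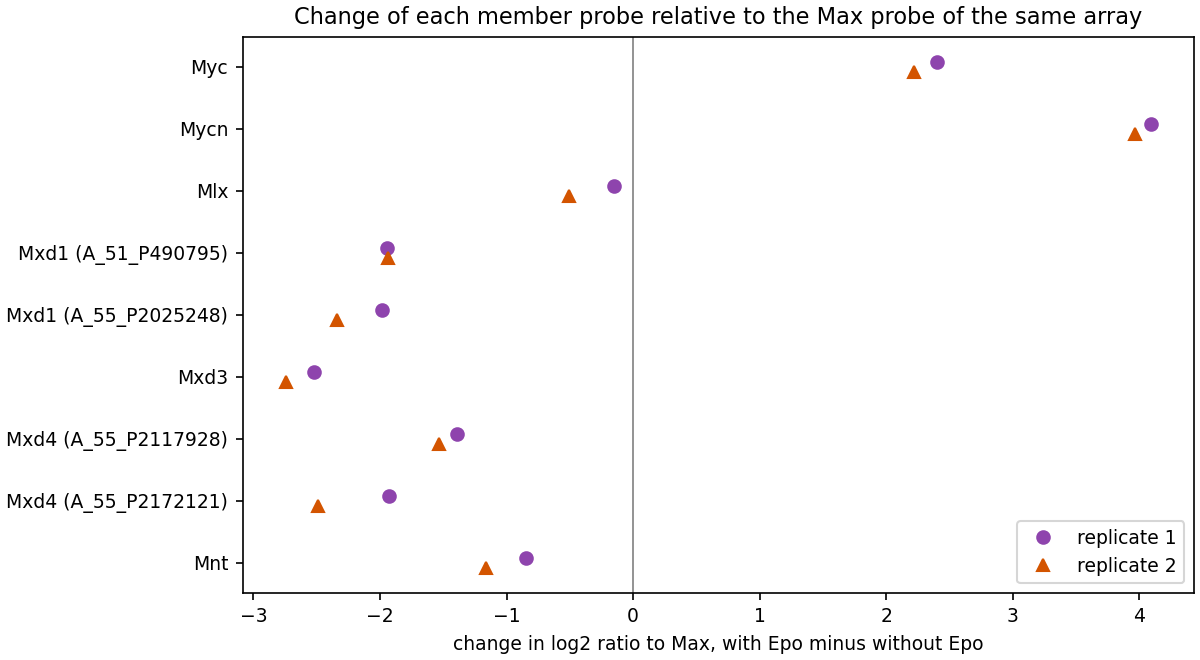
Change in the log2 ratio of each member probe to the Max probe of the same array, with Epo minus without Epo, for replicate 1 (circles) and replicate 2 (triangles). Myc and Mycn lie above 0, and Mlx, Mnt and all Mxd probes lie below it in both replicates.

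The promoters of the members were searched for CACGTG, the E-box that MYC and MAX pairs bind most tightly and which reads the same on both strands. RefSeq promoter sequences (GRCm38.p6, 250 bases before to 50 after each start) were found for 9 of the 10 members, and 4 of these hold it. The windows around it are shown, 24 bases on each side, because these members are themselves genes with the network's own binding sequence. Capitals mark CACGTG. Positions are counted from the start of transcription, with no position 0.
Max, chr12:76962222-76962275, minus strand, E-box at -3 to 3: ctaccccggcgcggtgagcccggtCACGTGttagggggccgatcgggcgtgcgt
Mlx, chr11:101087226-101087279, plus strand, E-box at -40 to -35: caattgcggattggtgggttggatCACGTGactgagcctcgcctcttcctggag
Mnt, chr11:74830777-74830830, plus strand, E-box at -123 to -118: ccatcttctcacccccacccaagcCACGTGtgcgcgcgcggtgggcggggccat
Mxd4, chr5:34187900-34187953, minus strand, E-box at -219 to -214: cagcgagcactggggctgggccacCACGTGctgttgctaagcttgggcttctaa
Max and Mlx were higher with Epo, while Mnt and the brighter Mxd4 probe did not pass. Among all 32851 promoter entries 7.15% hold CACGTG, and among the 27025 genes with an entry 8.09% do. The windows also differ in base composition, with a median of 25 CpG for the members against 8 over all genes with an entry. The tested genes with an entry had a median of 21 CpG, nearer to that of the members. The share with CACGTG among tested genes is not given, since only 54.2% of them have an entry. The windows of Mycn, Mycl, Mxd1, Mxd3 and Mxi1 do not hold these letters, which says nothing of sites elsewhere. A match is a description of sequence and not a measurement of binding.

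The rest of the network outside the members was described from lists of genes by role, 135 of whose genes were tested. The remaining partners were Mga, a MAX partner that represses germline genes, and the Mondo proteins Mlxip and Mlxipl, which pair with MLX. Mga rose by 0.99 ± 0.19 (SE; adjusted p = 0.0255 in limma) and Mlxip by 0.91 ± 0.22 (SE; adjusted p = 0.0429 in limma), while Mlxipl changed by -0.22 and did not pass. Both calls were lost without replicate 1 with Epo (adjusted p = 0.0825 for Mga and 0.129 for Mlxip) and without replicate 2 without Epo (0.0546 and 0.0995). Of 10 other factors of the same DNA-binding class that read E-boxes, 2 rose and 1 fell, with a median of -0.17. Over all genes 13.1% were called higher and 14.3% lower, with a median of -0.06. Bhlhe40, a repressor induced by many signals, rose by 2.63 and Mitf by 1.14, while Tfeb, which drives lysosomal genes, fell by 1.38, a fall that missed the threshold without scaling (-0.64). When the replicate number was fitted as a block, 4 of the 10 rose, against 3497 of all 17555 genes.

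Few genes for the proteins that MYC and its antagonists recruit passed the test on the main scale, where their medians lay near that of all genes. Over all genes 13.1% were called higher and 14.3% lower on that scale. Of 18 MYC coactivators (Trrap, Ep400, Kat5, Wdr5 and others) limma called 0 higher and 1 lower, with 1 higher and 2 lower at an unadjusted p under 0.05 and a median of 0.01. The 1 lower was Crebbp, an acetyltransferase, at -0.54 ± 0.11 (SE; adjusted p = 0.0319 in limma). Of 17 genes of the SIN3 corepressor complex limma called 0 higher and 1 lower, with 0 and 1 at an unadjusted p under 0.05, and a median of -0.07. The 1 lower was Ing2 at -0.72 ± 0.12 (SE; adjusted p = 0.0183 in limma). Crebbp lost its call without any 1 of the 4 arrays and Ing2 without any but replicate 1 without Epo. Without scaling 11 of the 18 coactivators and 8 of the 17 corepressors were called higher, against 8231 of all 17555 genes, and with spike-in scaling 17 and 16, against 13347 of all genes. Crebbp and Ing2 were above 0 without scaling (0.20 for Crebbp and 0.023 for Ing2) and under spike-in scaling (0.47 and 0.29). Each of these lists had 2 genes higher and 2 lower when the replicate number was fitted as a block, against 3497 and 4068 of all 17555 genes.

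Genes for MYC protein turnover and partners had 4 of 21 higher and 0 lower in limma, against 13.1% and 14.3% of all genes, with 6 higher and 4 lower at an unadjusted p under 0.05 and a median of 0.02. The deubiquitinase Usp36, which stabilises MYC in the nucleolus, rose by 1.08 and Usp22 by 1.01. Fbxw7, part of the ubiquitin ligase that marks MYC for degradation, rose by 0.70 (adjusted p = 0.0432 in limma), a call lost without any 1 array and with the replicate number as a block (adjusted p = 0.0538). With the mean of its 2 probes Fbxw7 rose by 0.44 and did not pass (adjusted p = 0.0790 in limma). It also missed the threshold with quantile normalization (adjusted p = 0.0552 in limma) and with the percentile over detected probes (adjusted p = 0.0639 in limma). With the replicate number as a block 3 genes of the list were lower, against 4068 of all 17555 genes. Without scaling 12 were higher, against 8231 of all 17555 genes. Without replicate 1 with Epo, 0 of the 21 were called higher by limma, and without replicate 2 with Epo 1 was.

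Genes that MYC is known to activate, mainly for ribosome assembly, nucleotide synthesis, translation and glycolysis, were mostly higher. Of 47 tested, 29 rose and limma called 0 lower (0 lower also at an unadjusted p under 0.05), against 13.1% and 14.3% of all genes. The median change was 0.70 against -0.06 over all genes. Polr1b, which encodes part of RNA polymerase I, rose by 2.44 ± 0.12 (SE; adjusted p = 0.00397 in limma). The glycolytic enzyme Hk2 rose by 2.33, the ribosome assembly factor Rrs1 by 2.22 and nucleostemin, Gnl3, by 2.16. Among familiar targets named here after their values were seen, Odc1, which makes polyamines, rose by 1.49 and Ncl by 0.59, whereas Ldha (-0.11), Cad (-0.07) and Npm1 (-0.10) did not pass. Paics, with the most negative change of the list (-1.02), and Fbl (-0.41) did not pass either. These values are those of each gene's brightest probe. For Ldha 2 of 3 kept probes, and for Npm1 2 of 4, had the opposite sign. The count fell to 16 without replicate 1 with Epo and to 15 without replicate 2 with Epo. In unscaled values 38 were higher, against 8231 of all 17555 genes, with a median of 1.44 against 0.68 over all genes. CACGTG stood in the promoter window of 13 of the 39 genes of this list with a sequence, 33.3%, against 8.09% of all genes with an entry. The median CpG count was 23 in this list, against 8 over all genes with an entry and 21 over the tested genes with an entry. Many genes with an entry were not tested here, so the 8.09% is not a share of the tested genes. The list was made of known MYC targets, so its share with CACGTG is no independent result. Of the genes that MYC represses, described next, 2 of 12 held it (16.7%).

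Genes that MYC is known to repress were mostly lower on the main scale. Of 14 tested, 9 fell and 1 rose, with a median of -0.89. At an unadjusted p under 0.05 in limma, 9 were lower and 3 higher. Over all genes 14.3% were called lower and 13.1% higher, with a median of -0.06. Ccng2, a cyclin of quiescent cells, fell by 3.11 ± 0.17 (SE; adjusted p = 0.00397 in limma), the cell cycle inhibitors Cdkn2c by 1.69 and Cdkn1b by 1.17, and Hbp1, a repressor that slows the cell cycle, by 1.17. The 1 that rose was Gadd45b, a stress-induced gene, by 1.62. Cdkn1a, another cell cycle inhibitor, named here after its value was seen, was above 0 at 0.60 but did not pass (adjusted p = 0.0743 in limma). It passed as higher without scaling (1.35) and with the replicate number as a block (adjusted p = 0.0190 in limma). Ccng2 and Cdkn2c passed without scaling (-2.37 and -0.94) and with spike-in scaling (-2.10 and -0.67), whereas Cdkn1b and Hbp1 were lower under both but did not pass. In unscaled values 2 of the 14 were lower and 3 higher, with a median of -0.15. Over all 17555 genes 364 were then lower and 8231 higher, with a median of 0.68. Under spike-in scaling 2 of the 14 were lower and 5 higher, with a median of 0.12. Over all genes 245 were then lower and 13347 higher, with a median of 0.95. Without replicate 1 with Epo 5 were lower, and with the replicate number as a block 3 were higher. Of 5 Mondo and MLX targets, Fasn, the fatty acid synthase, rose by 1.87, and limma called 0 lower (1 lower at an unadjusted p under 0.05). With the block 1 was lower, Txnip at -0.81, named here after its value was seen. The lists were compiled from general knowledge and overlap in function, and no test of a list was made.

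**Figure D4:**
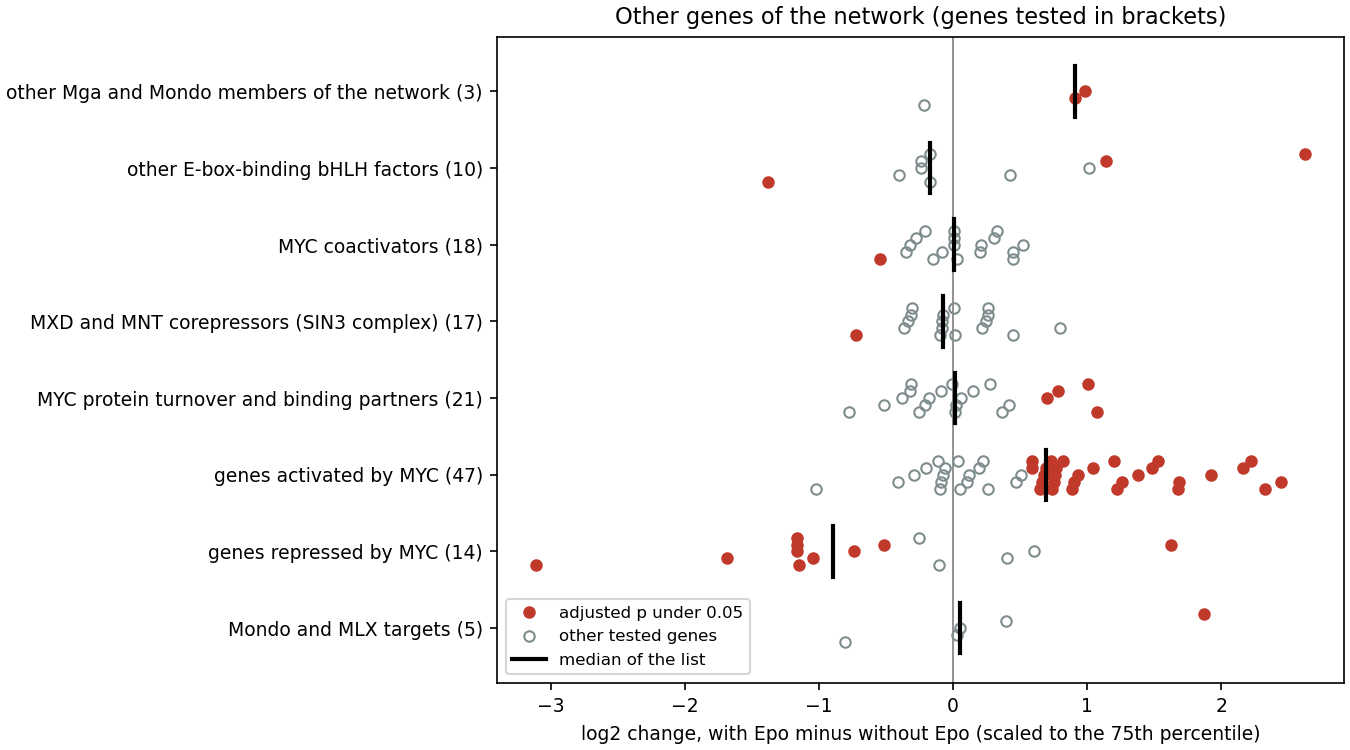
Log2 change (with Epo minus without Epo, scaled to the 75th percentile) of each tested gene in 8 lists of the network, with filled points for adjusted p under 0.05 in limma, open points for the rest and a bar at each list's median. The medians are 0.70 for genes activated by MYC and -0.89 for genes repressed by MYC, and close to 0 for the coactivators, the corepressors and the turnover genes.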

How the data were processed

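Total RNA of 4 cultures, 2 per group, was hybridised to 1-colour Agilent mouse arrays on 1 slide with 1 scan. The deposited values are spot intensities from Feature Extraction 10.1.1.1, background-subtracted with a spatial detrending surface and with surrogate values where spots were dimmest, per the file headers. The raw mean and local background intensities used for one alternative are also as deposited. The submitters' processing notes name limma, with no version.

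The log2 intensity minus each array's 75th percentile over 59305 non-control spots was used, with the mean percentile added back. Outlier-flagged spots were dropped (9 of 55681 probes were lost), spots of a probe were averaged, and probes well above background throughout at least 1 group were tested (23735 probes, 17555 genes, each gene by its brightest probe). No spot was saturated. Symbols were updated through the RefSeq GRCm38.p6 table for 26409 probes by accession, a further 3859 through their symbol and 735 through a synonym; the other 24669 kept the array's own name. Differences (with Epo minus without Epo) were tested two-sided with limma 3.58.1 in R 4.3.3, with Benjamini-Hochberg adjustment over all genes or probes and a threshold of 0.05. With 2 residual degrees of freedom the spread was moderated across genes. The fit was tested on simulated data.

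The named genes are all members and, from each list, up to 4 of the largest rises and falls past the threshold; a few listed genes and markers are counted but not reported here by name. The members and lists were chosen with earlier results of these data known, so their counts are no independent evidence. Replicate numbers were read as the 2 experiments of the study's design, though the labels match arrays between groups by number alone. Deviations of same-numbered arrays from their group means correlated at 0.386 across genes, and the alternatives include a fit that takes the replicate number as a block. Others changed the background correction, scaling, filter and probe summary, or left out 1 array. Scaling to the spike-in probes was added after seeing the data. Probe positions are those of the array files (mm9), and exon or UTR status was not analysed here beyond the Myc stop codon.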

Additional observations from a re-analysis of the deposited data

How the results depend on the processing

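Beside 4804 genes changed in the main setting, limma called 8595 of the same 17555 genes without scaling between arrays, 13592 with spike-in scaling and 7565 with the replicate number as a block, and 2287 to 4003 when 1 array was left out. The split of higher to lower calls was 2302 to 2502 in the main setting, 3497 to 4068 with the block, 1884 to 3646 with the percentile over detected probes, 8231 to 364 without scaling and 13347 to 245 with spike-in scaling. Beside 6143 probes changed in the main setting, the counts over all probes were 11806 without scaling, 18341 with spike-in scaling, 9587 with the block and 2455 to 4992 with 1 array left out. Without a filter on dim probes limma called 0 genes, 0 probes, 0 members (higher or lower) and 0 listed genes, with a smallest adjusted p of 0.108. At an unadjusted p under 0.05 that setting gave 7148 of 36310 genes, 9494 probes and 55 listed genes. It also gave 6 of the 8 member genes measured in the main setting. More features were then adjusted over, many of them dim. Members lower with Epo numbered 2, with 1 without scaling, 0 with spike-in scaling (1 at an unadjusted p under 0.05) and 1 to 2 with 1 array left out. Listed genes changed numbered 51, with 84 without scaling, 121 with spike-in scaling and 26 to 40 with 1 array left out. Signs turned for Mxd4 (0.35 without scaling, 0.62 with spike-in scaling), the dimmer Mxd1 probe (0.14 with spike-in scaling), Mnt (-0.047 with quantile normalization, -0.063 with the percentile over detected probes), Crebbp (0.20 without scaling, 0.47 with spike-in scaling) and Ing2 (0.023 and 0.29). The cause was not tested, beyond the shift each scaling gives to all genes. The block changed no member's call. Mycn (4.85 to 6.10), Myc (2.97 to 4.39) and Max (0.92 to 2.08) kept their direction under the 13 alternatives, and their calls under all but the one with no filter. Signal over background limits Mycl1 and Mxi1, for which neither group gave a measurable level. The replicates are 2 experiments on 1 cell line, and p-values rest on the spread between replicate arrays within the groups, moderated across genes.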
